A study of Mus musculus with 6 samples.

Results

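The baseline transcriptome of wild-type NIH3T3 cells under serum starvation was described from the 3 wild-type samples of a series of 6. They were chosen by their titles and genotype entry. Apart from a check of the gene list, the RAI16 knockout samples were not used here. NIH3T3 is an established line of immortalised mouse embryo fibroblasts. Every sample carried the wild-type genotype and had been kept without serum, for a time the labels do not give. Messenger RNA was sequenced with a stranded, poly(A)-selecting kit. The labels do not say whether the 3 libraries came from separate cultures, so their spread may be technical. No test between groups was made, and every value below is a description (mean ± SD, n = 3 libraries).

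Fibroblasts make the collagen-rich matrix of connective tissue and leave the cell cycle when serum growth factors are withdrawn. In such cells the retinoblastoma proteins hold back E2F, and inhibitors of cyclin-dependent kinases (CDKs) block entry into S phase. Serum given back switches on immediate early genes such as those of the FOS and JUN families before the G1 cyclins.

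The libraries of replicates 1, 2 and 3 held 17388612, 16741607 and 17482451 counts over 16000 listed genes. Levels are given as FPKM, which divides counts by a length per gene. CPM (counts scaled to a common library size by TMM) stands beside it for the depth behind a value. The lengths implied by the deposited FPKM ran from 206 to 114283 bases among genes of 10 CPM or more. Levels, ranks and family shares compared between genes rest on these lengths, which were not checked against the transcripts present. A gene was counted as expressed at 1 FPKM or more in each of the 3 libraries. By this rule 10529 genes (65.8%) were expressed, and 270 more reached 1 FPKM in 1 or 2 libraries only. Each of the 16000 listed genes had a count in at least 1 of the 6 samples of the series. The 65.8% and the numbers of listed genes below are therefore of genes detected in the series, not of all genes. The median expressed gene had a mean of 12.1 FPKM. No count was found for 1010 genes, which over the 51612670 summed wild-type counts allows up to 0.0581 CPM (3 counts, counting error only). Mean levels of 1000 FPKM or more were reached by 47 genes, which held 22% of all FPKM and 9.91% of all counts. The 5444 genes from 10 to under 100 FPKM held 41.3% of FPKM and 54.8% of counts.

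**Figure D1:**
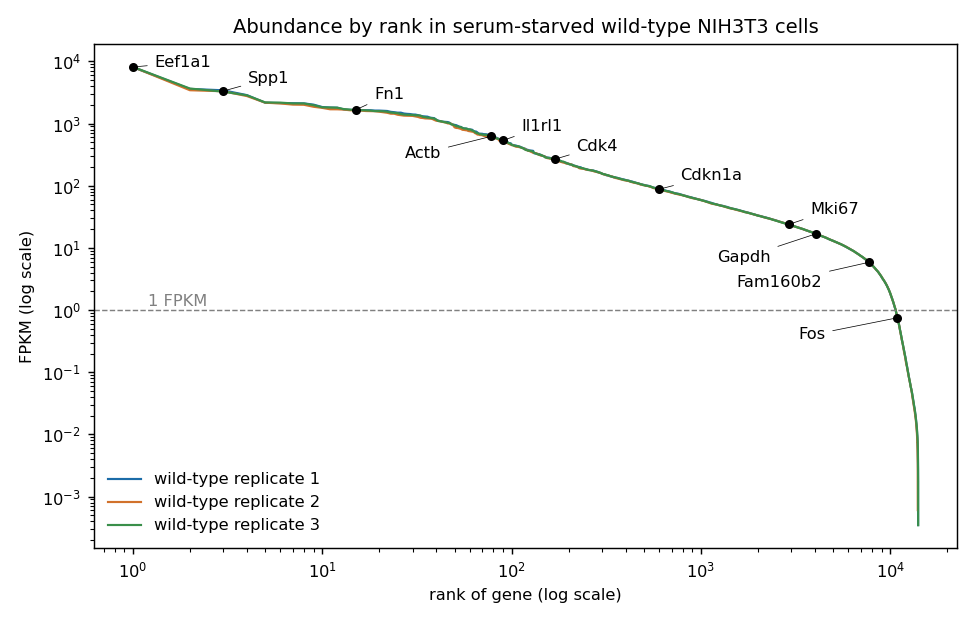
FPKM of each gene (vertical, log scale) against its rank (horizontal, log scale) in each of the 3 wild-type libraries, with named genes at their mean (black points) and 1 FPKM dashed. The 3 curves lie on each other from Eef1a1 at rank 1 down to Fos at rank 10903.

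The most abundant messenger RNAs belonged to translation, iron storage, secreted matrix and cytokines. Eef1a1, which brings aminoacyl-tRNA to the ribosome, stood first by FPKM and by CPM, with 8074, 8134 and 8151 FPKM in replicates 1, 2 and 3. Its mean CPM was 14534 ± 64.9. Fth1, the ferritin heavy chain, had 3604, 3436 and 3658 FPKM and Ftl1, the light chain, 2110, 2165 and 2186 FPKM. All 3 libraries gave the same order of these genes. Ribosomal proteins made up 12 of the 25 genes with the highest FPKM and 59 of the highest 100, led by Rpl41 (2825 ± 52 FPKM). The 85 listed cytosolic ribosomal protein genes held 17.9% of all FPKM. By CPM, which counts long transcripts more often, only 26 of the highest 100 genes encoded ribosomal proteins.

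Secreted proteins ranked among translation factors. Spp1, the secreted phosphoprotein osteopontin, had 3426, 3307 and 3259 FPKM. Fn1, the matrix glycoprotein fibronectin, had 1636, 1695 and 1644 FPKM and came after Eef1a1 by CPM (13923 ± 258). The small leucine-rich proteoglycan decorin, Dcn, stood at 1495 ± 24.2 FPKM. The chemokine Ccl2, which draws monocytes, had 1641, 1491 and 1642 FPKM, with replicate 2 lowest. Il1rl1, the receptor of interleukin 33, ranked 90th by FPKM and 5th by CPM (3993 ± 120 CPM). Proliferin, Prl2c2, reached 2134 ± 33.7 FPKM, but 86% of the 50-base stretches of its transcripts also occurred in transcripts of 5 other genes. Its level therefore cannot be assigned to 1 gene. The same limit touches other genes of high rank, with 52.4% of stretches shared for Eef1a1, 75% for Ftl1, 71% for Rps3a1, 82.6% for Rpl23a and 60% for Rplp1, so their levels and ranks are uncertain too. The others among the 25 highest were Rpl28, Rplp1, Rplp0, Tpt1, Lgals1, S100a4, B2m, Rps23, Eef2, Rps3a1, Rpl13a, Rpl7, Rpl23a, Rpl12, Rps9 and Rpl32, and the 10 highest by CPM also included Ctsl and Hsp90ab1.

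Of the 100 highest genes by FPKM, 71 had a core promoter in the RefSeq table of GRCm38.p6, and 4 of these (5.63%) held TATAAA on the gene's strand 40 to 20 bases before the start. The same letters were found at that place for 1.94% of all 12548 genes matched, 1.05% of the 8513 expressed and 3.82% of the 4035 not expressed, and the reverse strand (TTTATA) for 0.446% of all. A match describes these letters only. The 60 bases before the start are shown for the 4 genes because they place the TATA motif among the most abundant transcripts, with the motif in capitals. They encode a calcium-binding protein, a filament protein, a prolyl isomerase and a peroxidase.
S100a4 (chr3:90603710-90603769, plus strand, 1754 FPKM): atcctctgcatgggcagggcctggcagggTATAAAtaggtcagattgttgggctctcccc
Vim (chr2:13574251-13574310, plus strand, 1238 FPKM): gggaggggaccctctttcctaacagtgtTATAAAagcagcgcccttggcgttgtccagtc
Ppia (chr11:6415807-6415866, plus strand, 958 FPKM): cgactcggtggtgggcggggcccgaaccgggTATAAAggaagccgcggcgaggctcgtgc
Prdx1 (chr4:116685539-116685598, plus strand, 609 FPKM): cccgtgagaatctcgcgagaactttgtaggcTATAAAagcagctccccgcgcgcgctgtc

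The cells carried fibroblast markers at high levels. Of 34 listed fibroblast identity genes, 30 were expressed, with a median of 92.4 FPKM, beside 65.8% and a median of 5.3 FPKM over all listed genes. The highest were S100a4, Fn1, Dcn, the intermediate filament vimentin (Vim, 1238 FPKM) and S100a6 (540 FPKM). Pdgfra, a receptor of platelet-derived growth factor, had 170, 174 and 169 FPKM, and the surface glycoprotein Thy1 had 106, 104 and 110 FPKM. The collagen I chain Col1a2 (519 ± 2.23 FPKM) stood above its partner Col1a1 (150.0 ± 3.58 FPKM).

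A few fibroblast genes were low or not detected. Fap, a surface protease of activated fibroblasts, had 1, 0 and 0 counts. Nt5e, the ectonucleotidase CD73, had 2, 0 and 0 counts, and the matrix protein Fbln1 had 1, 1 and 7. Dpt, a dermal matrix protein, was listed at 1.07, 0.907 and 0.902 FPKM, just around the threshold. Lum, a proteoglycan, lay at 3.10 ± 0.0739 FPKM and Pi16, a marker of progenitor-like fibroblasts, at 1.49 ± 0.386 FPKM. Of 46 listed elastic fibre and matricellular genes, 38 were expressed (median 24 FPKM), beside 65.8% and 5.3 FPKM over all listed genes. However, Eln, encoding elastin, had no count in any library, and Loxl2 and Fbn2, a matrix cross-linking enzyme and a fibrillin, had 1 count each. Tcf21 was not analysed here.

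Markers of 10 other cell types were mostly low. Of 89 listed genes, 14 were expressed and 51 lay under 0.1 FPKM in all 3 libraries. Over all listed genes 65.8% were expressed, 6.31% had no count and 16.2% had a mean above 0 and under 0.1 FPKM. No epithelial marker of 9 was expressed, and Cldn4, Esrp1 and Tjp3 had no count. Among leukocyte markers Cd68, a lysosomal protein of phagocytes, reached 2.76 FPKM, while Adgre1, Tyrobp, Spi1 and Laptm5 had no count. The exceptions included Sox9 (67.8 FPKM) and Runx2 (19.1 FPKM), transcription factors of cartilage and bone, whose other 8 listed genes, Col2a1 with no count among them, were not expressed. Of 9 smooth muscle and myofibroblast genes 3 were expressed, led by the smooth muscle actin Acta2 (20.9 FPKM, 59.3 CPM). Smtn had 39.8 CPM and Tagln 9.55 CPM, while Myh11 was at 0.018 FPKM. Klf4 (19.3 FPKM), Bnc1 (9.27 FPKM), Ncam1 (8.86 FPKM) and Lpl (7.59 FPKM) were the highest of the pluripotent, mesothelial, neural and adipocyte lists. In bulk samples, fewer cells of a type and less RNA per cell cannot be told apart.

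**Figure D2:**
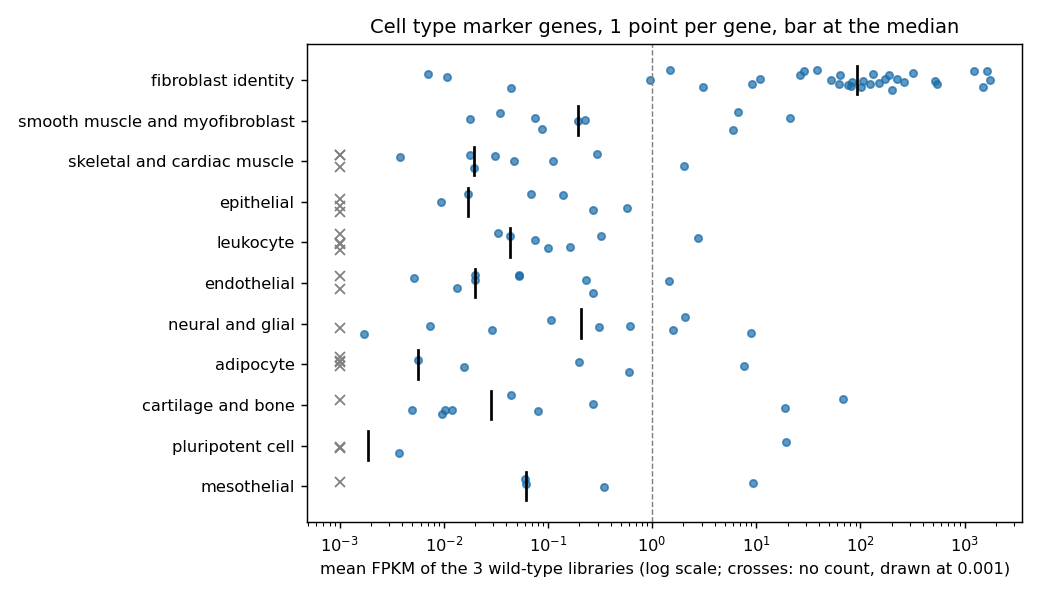
Mean FPKM (log scale) of each listed marker gene in 11 cell type lists, a point per gene, with black bars at the list median and crosses for genes with no count. The fibroblast list has its median at 92.4 FPKM, and the other medians lie between 0.00187 (pluripotent cell) and 0.21 FPKM (neural and glial).

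Genes of the dividing cell were expressed throughout in these serum-starved cells. All 83 listed genes for G1 cyclins and kinases, S-phase and mitotic cyclins and kinases, DNA replication and the mitotic spindle passed 1 FPKM in every library, with a median of 14.9 FPKM. Of all listed genes, 65.8% passed. Cdk4, the kinase partner of the D cyclins, was highest among the G1 genes with 268, 266 and 267 FPKM. Ccnd1, cyclin D1, had 60.3, 62.7 and 60.8 FPKM. The mitotic cyclins Ccna2 and Ccnb1 lay at 27.6 ± 0.828 and 21.2 ± 0.220 FPKM. Of the replication genes, the polymerase clamp Pcna had 82.0, 77.5 and 82.2 FPKM and the helicase subunit Mcm3 54.5 ± 1.77 FPKM. Top2a, the topoisomerase of condensing chromosomes, had 75.44, 74.79 and 74.95 FPKM. Mki67, a marker of cycling cells, had 23.0, 23.6 and 24.9 FPKM.  In these libraries the 3 values lay close together for each of these genes.

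CDK inhibitors were expressed beside them. Cdkn1a, the p53 target p21, had 89.0, 89.0 and 85.1 FPKM, and Cdkn1b, the serum-responsive inhibitor p27, 37.1, 37.7 and 36.7 FPKM. Cdkn2c lay between at 57.9 ± 0.774 FPKM and Cdkn2d at 6.62 ± 0.669 FPKM. Cdkn1c had no count in any library. Cdkn2a and Cdkn2b were not analysed here. Of the 8 listed neighbours of their locus, 5 were expressed, a share near the 65.8% of all listed genes. Among these neighbours the methionine salvage enzyme Mtap was at 256 ± 5.23 FPKM and Klhl9 at 33 FPKM. Of the RB, E2F and MuvB list, 19 of 20 genes were expressed, beside the same 65.8% of all listed genes. The exception was E2f6, with 9 counts in all, and Rbbp4 was highest at 69.2 FPKM.

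Growth arrest and serum deprivation genes were also expressed. Of 27 listed genes, 25 passed, with a median of 21.2 FPKM, beside 65.8% and a median of 5.3 FPKM over all listed genes. Gas1, a membrane protein first found in arrested fibroblasts, had 262, 286 and 273 FPKM, and Axl, the receptor of Gas6, 328, 338 and 333 FPKM. Txnip, which binds thioredoxin, lay at 121 ± 2.12 FPKM and Btg1, an antiproliferative factor, at 110.1 ± 1.07 FPKM. Dcn, Pdgfra, Cavin3, Pmp22, Gas7, Cited2, Ccng1, Sesn3, Cavin2, Ccng2, Mxi1, Gas8, Tob2, Gas2l1, Tob1, Klf2, Tyro3, Gas2l3, Gas6, Gas2 and Btg2 were also expressed, the last 3 between 2.28 and 3.27 FPKM. Mertk, a relative of Axl, had 0.719 FPKM, and Igfbp5 had no count.

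Immediate early genes were unequal. Of 31 listed genes, 27 were expressed, with a median of 17.7 FPKM, beside the same 65.8% and 5.3 FPKM over all listed genes. Jun had 131, 137 and 133 FPKM, Ptgs2, the inducible prostaglandin synthase, 132, 119 and 122 FPKM, and Myc 116, 108 and 112 FPKM. Among FOS relatives, Fosl1 was at 99.1 ± 1.95 FPKM, whereas Fos itself was at 0.873, 0.680 and 0.705 FPKM and Fosb at 0.822, 1.06 and 1.08 FPKM. The libraries of Fos and Fosl1 did not overlap. Nr4a3, a nuclear receptor, had 0.0237 FPKM.

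**Figure D3:**
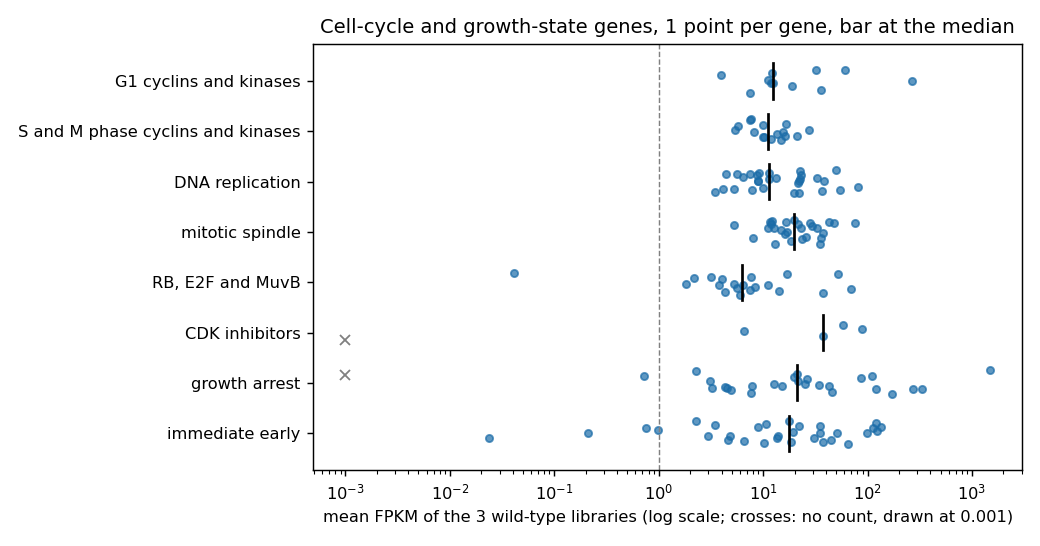
Mean FPKM (log scale) of each gene in 8 growth-state lists, a point per gene, black bars at the list median, crosses for genes with no count (Cdkn1c and Igfbp5). Points of the G1, S and M phase, replication and spindle lists all lie above 1 FPKM, with medians from 11.1 to 19.8 FPKM.

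House-keeping machinery beyond the cytosolic ribosome was expressed nearly in full, beside 65.8% of all listed genes. All 78 mitochondrial ribosomal protein genes were expressed, with a median of 18.9 FPKM, far under the 660 FPKM median of the 85 cytosolic ribosomal protein genes. Of 37 proteasome genes, 36 were expressed (median 80.1 FPKM), led by Psmb1 (210.4 FPKM), and the immunoproteasome subunit Psmb8 was at 0.301 FPKM. All 26 genes of secretion and collagen folding were expressed, led by the calcium-binding chaperones Calr (331 FPKM) and Hsp90b1 (308 FPKM), with the collagen chaperone Serpinh1 at 193 FPKM.

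Histone genes split by class. Of 73 listed histone genes, 17 were expressed, beside 65.8% of all listed genes. The median of the 73 was 0.174 FPKM, beside 5.3 FPKM over all listed genes. The highest were the replacement histones H3f3b (248 FPKM), H3f3a (226 FPKM), H1f0 (191 FPKM) and H2az1 (182 FPKM), whose messages carry poly(A) tails. Most of the others are replication-dependent histones, whose messages lack such tails and are poorly taken up by a poly(A)-selecting kit. The part of that selection in their low values was not tested.

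Secreted factors and collagens were expressed in shares near or below the 65.8% of all listed genes. Of 53 listed secreted factors, 35 were expressed, led by Ccl2, Ccl7 (588 FPKM), Mif, Cxcl5 and Ccl5. Igf1, Bmp4 and Gdf15 had no count. The keratinocyte growth factor Fgf7, made by mesenchymal cells, reached 165, 166 and 170 FPKM and held 87.3 ± 0.39% of the summed FPKM of the FGF ligand list. Of 34 receptor genes, 28 were expressed, led by Pdgfra, Il6st, Fgfr1, Osmr and Igf2r, while Egfr, the EGF receptor, was at 0.964, 0.779 and 1.05 FPKM. Of 42 collagens, 22 were expressed, led by Col1a2, Col6a1, Col3a1, Col6a3 and Col1a1. In the Hedgehog and cilium list, 21 of 25 genes were expressed. Its signal transducer Smo lay at 42.8 ± 0.423 FPKM, and its targets Ptch1 at 4.31 ± 0.327 FPKM and Gli1 at 0.0942, 0.131 and 0.0625 FPKM.

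Many gene families were dominated by 1 member. Among 84 families, the highest member by mean FPKM held over 50% of the family's summed FPKM in 46 and over 90% in 5. These counts depend on list size, which ran from 2 to 31 listed members. With 2 members (beta-thymosins, aldolases and ferritins) the highest holds at least 50% by list size alone. In 81 families all 3 libraries had the same highest member, and in 80 the highest and the next did not overlap between libraries. Vim stood at 1238 FPKM beside 0.196 FPKM of the next intermediate filament gene of its list, Des, and Aldoa at 367 FPKM beside 0.127 FPKM of Aldoc. Slc2a1, the basal glucose transporter, held 91.8 ± 0.16%, and Notch2 93.6 ± 0.45% of the Notch receptors. Lmna, encoding lamins A and C, held 85.9 ± 0.28% of the lamins, and Cfl1 85.2 ± 0.62% of the cofilins. Actb held 70.3 ± 1.2% of the actins, with Actg1 next (241 FPKM). Of the stretches of Actb and Actg1, 12.2% and 45.6% also occur in other genes, so the split between them is uncertain.

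Metabolic, signalling and adhesion families were led by the following members. In the glycolytic families the leading members were Hk1 and Hk2 (23.8 and 16.9 FPKM), Pfkl (37.4 FPKM), Aldoa, Eno1 (221 FPKM), the pyruvate kinase gene Pkm (428 FPKM) and Ldha (120 FPKM, 73.9 ± 1.2% of the lactate dehydrogenases), with Slc16a1 (29 FPKM) as the highest monocarboxylate transporter and Slc16a3 with no count. Eno1b stood at 64.8 FPKM, and 85.2% of its stretches and 49.5% of those of Eno1 also occur in other genes, so the split between them is uncertain. Rras stood highest among RAS GTPases (39.4 FPKM), and Akt1 held 65.8 ± 0.33% of the AKT kinases. These shares depend on the unit. By CPM, which is not per length, Mras led the RAS GTPases. Akt1 held 39.7% of the summed CPM of the AKT kinases and Ldha 92% of that of the lactate dehydrogenases. The lysophosphatidic acid receptor Lpar1, a target of serum lipids, held 41.8 ± 0.17% of the LPA and S1P receptors (44.5 FPKM). Itga5 and Itgb1, the fibronectin receptor chains, led the integrin lists with 79.6 and 133 FPKM.

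Other families were shared between members. Tuba1b (81.5, 82.8 and 89.5 FPKM) and Tuba1a (82.3, 82.5 and 79.6 FPKM) overlapped, and 73.8% and 72.9% of their stretches also occur in other genes. The SRC family kinases Src and Yes1 lay at 14.9 ± 0.197 and 14.7 ± 1.17 FPKM and also overlapped. By CPM, which is not per length, Fyn led that family with 55% of its summed CPM. Of HMGA and HMGB genes, Hmga1b (419 FPKM) stood above Hmga1 (336 FPKM). Of the stretches of Hmga1b, 89% also occur in other genes. Its level therefore cannot be assigned to 1 gene, and the order of Hmga1b and Hmga1 is uncertain. The family of the gene targeted in the series, FHIP, had all 4 listed members expressed. Fam160b1 had 13.2, 13.2 and 11.8 FPKM and held 48.7 ± 1.5% of it. Fam160b2, another symbol of Rai16, had 6.27, 5.55 and 5.83 FPKM (440, 375 and 411 counts). It ranked 7719th of 16000 genes, and Fam160a1 (4.59 FPKM) and Fam160a2 (2.94 FPKM) lay below it.

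**Figure D4:**
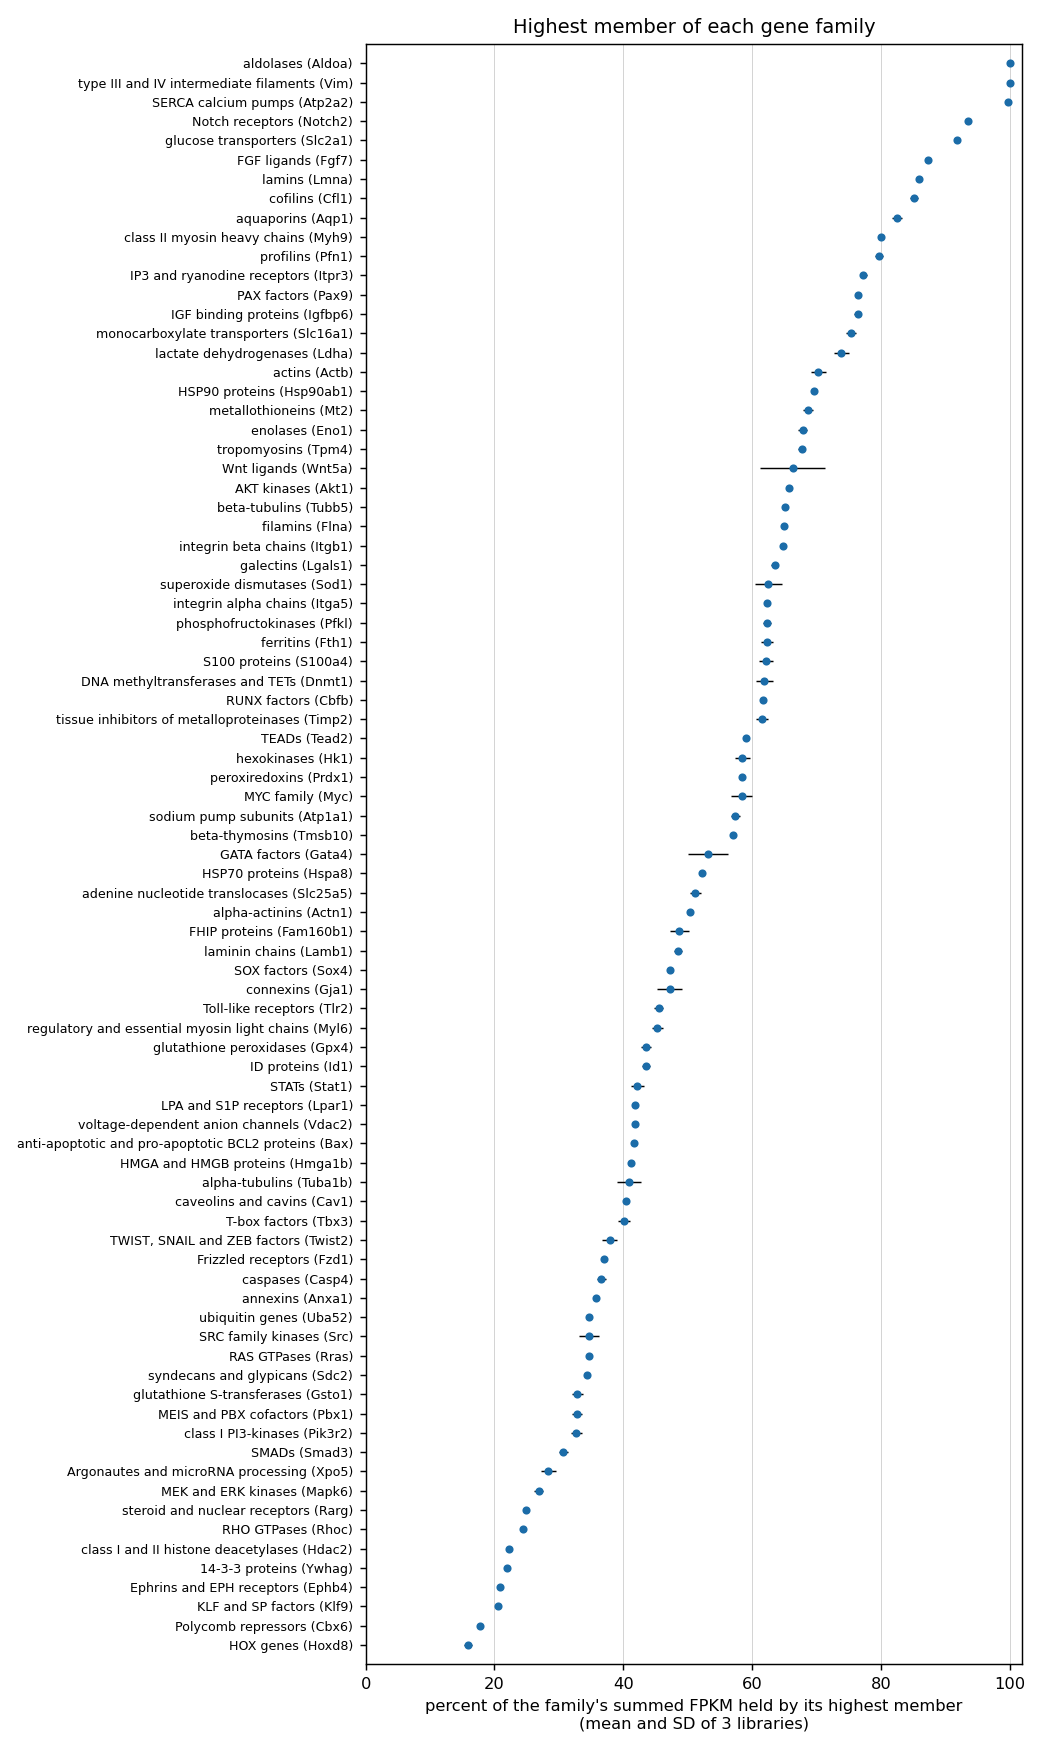
Percent of a family's summed FPKM held by its highest member (named in brackets), mean and SD of 3 libraries, for the families shown, sorted by that share. Shares run from 15.9% for Hoxd8 among HOX genes to nearly the whole for Vim.

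Library-to-library spread was small. Over 9436 genes with a mean of 10 CPM or more, the median coefficient of variation was 3.57% (quartiles 2.15% and 5.55%), and 7 genes were over 20%. The biological coefficient of variation from edgeR, the spread beyond counting, was 2.67%. Counts of replicates 1 and 2, 1 and 3 and 2 and 3 differed by chi-squares of 2.28, 1.91 and 2.03 per degree of freedom. These are averages over genes and lie above what counting error alone gives, but a few wide genes can raise them. Whether the libraries were technical repeats or came from separate cultures was not tested. Short transcripts tended to be lower in replicate 2: in the 2359 shortest genes (206 to 2327 bases) the median log2 deviation was 0.016 in replicate 1 and −0.016 in replicate 2, and in the 2359 longest −0.013 and 0.011. The median deviation of small-subunit ribosomal proteins was 0.044 in replicate 1 and −0.054 in replicate 2.

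The widest spread fell on a few genes. Rnaset2b, a ribonuclease gene, had 25.3, 10.7 and 8.41 CPM, with replicate 1 far above the others (SD of log2 CPM 0.83). C1rb, a complement protease gene, had 16.7, 7.88 and 9.95 CPM. In these 2 genes 74.2% and 60.5% of stretches also occur in other genes. The small-subunit ribosomal protein Rps18 had 183, 123 and 164 CPM, with 79.4% of its stretches shared. The others were Gm5454, Rsph3a, Magohb, Hlf, Cdc25c, Ndufa3, P2rx3, Gapdh and Commd9, of which Hlf, Cdc25c, Ndufa3 and P2rx3 shared no stretch. Over all 15146 genes matched, 3.29% shared over 50% of their stretches and 65.9% shared none. The part of shared stretches in this spread was not tested. The narrowest were Jak1 (335 CPM in each library), Rin2, Plk4, Nfib, Cdc42bpa and Nop53.

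**Figure D5:**
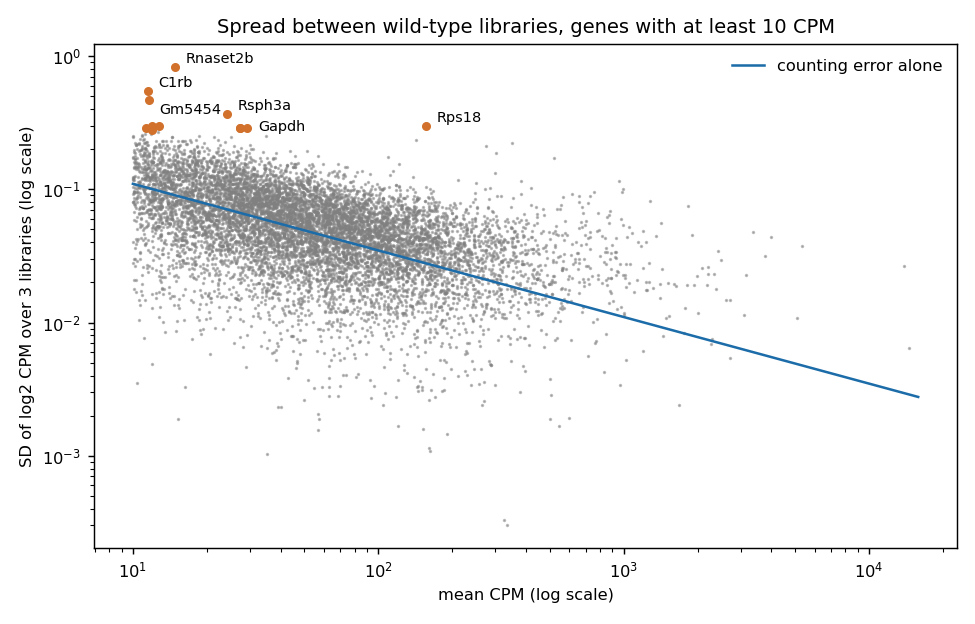
SD of log2 CPM over the 3 wild-type libraries (vertical, log scale) against mean CPM (horizontal, log scale), a grey point per gene, with the line that counting error alone gives. The 12 widest genes (orange) lie from 0.28 to 0.83, with Rps18 to the right at 157 CPM.

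Reference genes used for normalization differed in level and spread. Eif4a2, a translation initiation helicase, had 546.4, 547.3 and 546.1 CPM, a coefficient of variation of 0.117%, and Tbp, the TATA-binding protein, 37.8, 37.9 and 37.6 CPM (0.415%). Actb was at 3.41%. The glycolytic enzyme Gapdh stood low. It had 481, 603 and 426 counts, 27.7, 36.0 and 24.4 CPM, and 16.9 ± 3.46 FPKM, far below Pgk1 (271 FPKM) and Aldoa (367 FPKM). Its coefficient of variation was 20.4%, and 58.4% of its stretches also occur in transcripts of 218 other genes. Pgk1 shared 68% of its stretches, with a coefficient of variation of 1.36%. How shared reads were counted is not given, so the levels of both Gapdh and Pgk1 are uncertain. Of the 24 reference genes, Rps18 (19.6%) had the next widest spread.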

How the data were processed

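Polyadenylated RNA was measured in serum-starved NIH3T3 cells. The submitters' processing notes name build GRCm39 and, without versions or roles, Trimmomatic, HISAT2, Cufflinks, HTSeq and DESeq. Annotation release, strand setting and treatment of shared reads: not given in the sources used here. Raw counts per gene and FPKM values were deposited by the authors. Each of 41991 wild-type values above 0 differed from the count divided by total and a length per gene by at most 7.97e-05%. Both tables list 16000 genes, and 0 columns belong to samples outside the series. The RAI16 knockout columns were used only to see that each listed gene had a count in the series.

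For all levels and spreads the 3 wild-type columns were used alone, grouped by title. CPM was scaled by TMM (edgeR 4.0.16, R 4.3.3), and dispersion was estimated on the 11665 genes kept by filterByExpr. The log2 CPM for the spread used a prior count of 2. The spread script was tested on simulated data. Members, gene lists and rules were chosen with earlier results of these data known. Of 1670 entries in 121 lists, 120 different symbols were not analysed here, among them all 34 entries of a list of long non-coding RNAs. Named genes were the 25 highest by FPKM, 10 highest by CPM, the 2 highest of a family or 5 of a list, members under 0.1 FPKM in all libraries, the 12 widest and 6 narrowest, and all CDK inhibitor and growth arrest genes. Thy1, Dpt, Fbln1, Lum, Pi16, Mki67, Fos, Fosb, Egfr, Ptch1, Gli1, Psmb8, Fam160a1, Fam160a2, Tbp, Pgk1, Eif4a2, Tlr3, Kdm5d, Eif2s3y and Uty fall outside the rule and were named after their values were seen. Some items are not reported here. Shared stretches are 50-base words of GENCODE M21 protein-coding transcripts found in another gene. If strand was not used, overlapping antisense genes cannot be told apart. Alternatives tried were other expression thresholds, size factors, filters and leaving out each library.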

Additional observations from a re-analysis of the deposited data

How the results depend on the processing

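No paired analysis was possible because no test between groups was made. The count of expressed genes ran from 9763 to 14990 over the thresholds tried (10529 as reported), and from 10570 to 10584 without 1 library. The 10 and 100 most abundant genes held 5.9% and 17.9% of the counts but 8.14% and 31.5% of summed FPKM. The median coefficient of variation was 3.57%, and 4.18% and 2.27% with a minimum of 1 and 100 CPM. Without 1 library it ran from 2.78% to 2.99%, but the median SD from fewer libraries is lower at the same spread. A narrower spread cannot be read from these values. The biological coefficient of variation was 2.41% to 2.96% without 1 library. By CPM, which is not per length, 66 of the 84 families had the same highest member as by FPKM, and without replicate 3, 82 had. Of the 12 widest genes, 12 were also among the widest with a prior count of 0.5, but only 1 (Rps18) among genes with at least 50 CPM, since the others lie below that.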

Other observations

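Positional and nuclear receptor genes are given beside the 65.8% of all listed genes that were expressed. Of 31 HOX genes, 16 were expressed, led by Hoxd8 (14.3 FPKM) and Hoxa5 (9.86 FPKM), while Hoxb7 and Hoxd13 had no count. Of 10 T-box factors, 5 were expressed, led by Tbx3 (24.6 FPKM) and Tbx15 (19.3 FPKM). Of 27 nuclear receptors, 16 were expressed, with the retinoic acid receptor Rarg highest at 102.6 FPKM. The Toll-like receptors Tlr2 (26.1 FPKM), Tlr4 (20.3 FPKM) and Tlr3 (9.81 FPKM) were expressed, and 5 of 8 were not.

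By chromosome, from the RefSeq table's assignment of gene numbers, the share of listed genes that were expressed ran from 59% (chromosome 14) to 71.3% (chromosome 8) over the autosomes and was 62% on X. On Y, 1 of 17 listed genes was expressed, the RNA helicase gene Ddx3y (4.65 FPKM), beside 110.1 FPKM of its X-linked relative Ddx3x. Kdm5d, Eif2s3y and Uty lay between 0.703 and 0.758 FPKM, and Zfy1 and Zfy2 had no count.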
